A study of Mus musculus with 21 samples.

Results

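Granzymes C, D, E and F, the products of Gzmc, Gzmd, Gzme and Gzmf, were followed through a culture series of mouse CD8 T cells. The members were chosen by symbol, and all 4 were found among the 17516 gene symbols of every library. RNA had been measured in single OT1 cells, CD8 T cells that carry 1 transgenic receptor for an ovalbumin peptide. The series held 1 library for each of 21 conditions and no replicates, so the comparisons are descriptions with no test and no p-value. A model that adds effects of cytokine, dose and day over the 18 libraries with cytokine was not fitted. Intervals are exact 95% intervals that cover counting error only, and differences between cultures of the same condition are unknown.

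All cells shared the OT1 genotype. The naive library was taken on day 0, before activation. The other 20 libraries came from cells activated with beads that carry antibodies to CD3 and CD28. Of these, 18 received a cytokine (IL-2, IL-2v or IL-15) at a dose of 5 or 50 IU/mL and were harvested on day 3, 5 or 10. The other 2 received none and were harvested on day 3 or 5. IL-2 and IL-15 are cytokines that sustain activated T cells through shared receptor chains. IL-2v is labelled as a mutant IL-2. The treatment labels of the 50 IU/mL IL-2 and IL-15 libraries name other interleukins than their titles, which were taken here. The labels name no number of mice or cultures behind a library, and they also describe a sort of live CD44+CD45.1+CD8+ cells from tumours, which was taken as not applying to these cultures.

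Libraries held 3250 to 7105 cells and 10589950 to 32648496 unique molecular identifiers (UMIs, tags that mark single captured RNA molecules). The median depth was 3016 to 5065 UMIs per cell. Levels below are UMIs of a gene summed over the cells of a library, divided by all UMIs of that library and scaled to counts per 1000000 UMIs (CPM). A summed level cannot tell a smaller share of cells with the RNA from less RNA per cell, so shares of cells are given too. The summed CD8 T cell markers Cd3d, Cd3e, Cd3g, Trac, Cd8a and Cd8b1 ran from 2238 to 5519 CPM.

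Granzymes are serine proteases that cytotoxic lymphocytes store in granules and release, together with the pore-forming protein perforin, at contact with a target cell. Granzyme B is the main death-inducing member and is made soon after activation. Granzymes C to F lack clear human counterparts, lie beside Gzmb in the mouse genome, and are known from killer cells kept for long periods in IL-2. The cluster also holds Gzmg and Gzmn, and further along come the myeloid and mast cell protease genes Ctsg, Mcpt8 and Cma1.

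The 4 genes lie on the minus strand of chromosome 14 (GRCm38.p6, the mm10 build, GENCODE annotation). Gzmc occupies chr14:56231441-56234656, Gzmf chr14:56205263-56211417, Gzmd chr14:56129556-56132608 and Gzme chr14:56117626-56120625. Each is annotated as protein coding with 5 exons and 1 transcript. From Gzme to Gzmc the cluster spans 117 kb and holds 10 annotated genes, of which 6 are granzymes. Their promoters, from 250 bases before to 50 bases after the RefSeq start, are shown because the genes follow each other across the libraries and because they differ in a short element. Sequences are from RefSeq on GRCm38.p6, 5′ to 3′ on the minus strand. Capitals mark the RUNX core AACCACA, the octamer TGACGTCA or the bases aligned to it, and the TATA-like TTTAAA. The window is chr14:56234608-56234907 for Gzmc, chr14:56132544-56132843 for Gzmd, chr14:56120576-56120875 for Gzme, chr14:56211358-56211657 for Gzmf and chr14:56262285-56262584 for the neighbour Gzmb. The start behind a window lies 1 base upstream of the GENCODE start for Gzmc, 15 bases downstream for Gzmd, 10 downstream for Gzmf and at the same base for Gzme. For Gzmb it lies 74 bases upstream, so that its window ends before the GENCODE start.
Gzmc: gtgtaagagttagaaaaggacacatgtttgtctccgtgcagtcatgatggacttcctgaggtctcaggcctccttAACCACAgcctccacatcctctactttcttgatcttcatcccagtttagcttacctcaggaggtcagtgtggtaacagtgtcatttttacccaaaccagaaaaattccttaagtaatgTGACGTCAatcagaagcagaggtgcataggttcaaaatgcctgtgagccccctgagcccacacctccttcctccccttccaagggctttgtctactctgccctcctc
Gzmd: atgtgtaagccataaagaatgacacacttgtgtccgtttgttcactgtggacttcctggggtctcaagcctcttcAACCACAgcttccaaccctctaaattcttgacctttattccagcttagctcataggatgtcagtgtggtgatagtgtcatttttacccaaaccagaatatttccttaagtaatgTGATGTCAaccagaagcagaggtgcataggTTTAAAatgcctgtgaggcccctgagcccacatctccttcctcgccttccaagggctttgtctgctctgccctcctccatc
Gzme: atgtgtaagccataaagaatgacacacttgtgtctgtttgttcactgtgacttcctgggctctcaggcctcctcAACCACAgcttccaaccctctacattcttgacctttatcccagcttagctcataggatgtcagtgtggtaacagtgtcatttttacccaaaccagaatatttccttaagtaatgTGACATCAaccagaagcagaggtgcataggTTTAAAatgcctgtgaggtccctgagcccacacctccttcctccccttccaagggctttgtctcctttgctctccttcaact
Gzmf: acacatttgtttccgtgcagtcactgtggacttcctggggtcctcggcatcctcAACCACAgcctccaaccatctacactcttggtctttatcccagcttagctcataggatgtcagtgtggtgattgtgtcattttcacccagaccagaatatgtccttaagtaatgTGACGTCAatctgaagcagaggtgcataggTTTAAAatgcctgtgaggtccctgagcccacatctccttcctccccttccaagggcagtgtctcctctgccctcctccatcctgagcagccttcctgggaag
Gzmb: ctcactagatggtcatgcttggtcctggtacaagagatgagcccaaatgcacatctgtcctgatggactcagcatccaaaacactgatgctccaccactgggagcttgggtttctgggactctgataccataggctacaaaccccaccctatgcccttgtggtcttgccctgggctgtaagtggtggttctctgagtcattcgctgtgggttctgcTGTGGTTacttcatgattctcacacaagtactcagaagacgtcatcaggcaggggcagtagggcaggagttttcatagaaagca

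The Gzmd and Gzme windows were 93.4% identical. Gzmc was 83.4% identical to Gzmd and 83.8% to Gzme, and Gzmf was 84.8% identical to the neighbour Gzmg. Identity of the members with Gzmb was 46.8% to 51.5%. AACCACA was found in 4 of the 4 member windows on the strand shown, against 5.27% of 32851 RefSeq promoter windows of 300 bases on either strand. TGACGTCA, the palindromic cyclic AMP response element, was found in Gzmc and Gzmf, against 1.79% of promoters. At the aligned place Gzmd carried C4T and Gzme carried G5A, with positions counted from the first base of the octamer. The window of the neighbour Gzmg, not shown, held the octamer unchanged, with the RUNX core and the TATA-like element. TTTAAA was found in Gzmd, Gzme and Gzmf, against 13.2% of promoters. CACACC, which T-box factors can bind, was found in Gzmc and Gzme, against 19.0%. The AP-1 element TGANTCA (7.81% of promoters), the STAT5 element TTCNNNGAA (8.30%) and the NFAT core GGAAAA (23.4%) were in none of the 4 member windows, with both strands searched. In the Gzmb window AACCACA was found on the opposite strand, with TGANTCA and TTCNNNGAA also present. These are matches of letters and no measure of binding. The 4 member windows were 74.6% to 93.4% identical to each other, so their matches are not independent. The shares of all promoters are given for scale and make no test.

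Gzmc was the first and most widely detected of the 4 genes, with a UMI in 20 of 21 libraries. Naive cells had 0.379 CPM of Gzmc. On day 3 it stood at 3.33 CPM without cytokine, 10.3 and 4.48 CPM with 5 and 50 IU/mL IL-2, 5.26 and 7.88 CPM with IL-2v, and 3.67 and 4.48 CPM with IL-15. All 7 libraries of day 3 were above the naive library, and their intervals did not overlap with it. On day 5 Gzmc was 3.04 CPM without cytokine, 28.5 and 128.9 CPM with 5 and 50 IU/mL IL-2, 10.9 and 138.9 CPM with IL-2v, and 6.59 and 12.9 CPM with IL-15. On day 10 it reached 55.1 and 1353 CPM with IL-2, and 4.69 and 772.7 CPM with IL-2v. With IL-15 on day 10 it had 0 UMIs at 5 IU/mL, where 3 UMIs would be 0.129 CPM, and 7 UMIs (0.220 CPM) at 50 IU/mL. In order of level, the 50 IU/mL libraries of IL-2 and IL-2v on day 10 came first and stood apart from each other. The day 5 libraries of the same treatments followed, with overlapping intervals of 134.0 to 144.0 CPM for IL-2v and 122.1 to 135.9 CPM for IL-2. The next were 5 IU/mL IL-2 on day 10 and on day 5, apart from each other and from all lower libraries. Below these, from 12.9 down to 3.04 CPM, each library's interval overlapped with that of its neighbour in the order.

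Gzmd and Gzme were absent from most libraries and appeared late and together. Gzmd had 0 UMIs in 14 libraries and Gzme in 13, naive cells, cells without cytokine and all 6 IL-15 libraries among them. In the 50 IU/mL IL-2 series, Gzmd stood at 1.15 CPM on day 3, 3.97 CPM on day 5 and 3602 CPM on day 10 (interval 3579.5 to 3624.6). Gzme stood at 0.303, 2.46 and 1752 CPM in the same 3 libraries. These day 3 and day 5 levels rest on 19 and 42 UMIs of Gzmd and on 5 and 26 UMIs of Gzme. Few cells held them: the Gzmd UMIs lay in 3 cells on day 3, 1 of them with 15, and in 12 cells on day 5, 1 of them with 13. In the 50 IU/mL IL-2v series, Gzmd had 0 UMIs on day 3, 1.12 CPM on day 5 and 424 CPM on day 10, where the day 5 level rests on 24 UMIs in 4 cells, 1 of them with 14. Gzme had 1 UMI, 5 UMIs and 199 CPM there. At the lower IL-2 dose, neither had a UMI before day 10, when Gzmd was 14.2 CPM and Gzme 5.17 CPM. They had 4 and 3 UMIs with 5 IU/mL IL-2v on day 10. In order, the 3 highest libraries for both genes were thus 50 IU/mL IL-2, 50 IU/mL IL-2v and 5 IU/mL IL-2 on day 10. Their intervals did not overlap, but these intervals take UMIs as independent. The 5 IU/mL IL-2 levels came from few cells. Without cells above 2 times the median UMIs of the library, they were 4.22 CPM for Gzmd and 1.82 CPM for Gzme. Those levels lie near or below the unfiltered 3.97 and 2.46 CPM of 50 IU/mL IL-2 on day 5. The day 5 levels under the same filter are not given here, so the place of 5 IU/mL IL-2 in the order is uncertain.

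Gzmf took the same order on day 10 at lower levels, and differed from Gzmd and Gzme on day 3. It was 438 CPM with 50 IU/mL IL-2 on day 10, 68.5 CPM with 50 IU/mL IL-2v and 3.90 CPM with 5 IU/mL IL-2. It had 3 UMIs with 5 IU/mL IL-2v on day 10, and none with IL-15. On day 3 all 7 libraries held Gzmf at 1.09 to 2.45 CPM, from 18 to 45 UMIs each and 244 UMIs in all. The library without cytokine was among them, at 1.53 CPM. On day 5 Gzmf was 3.31 CPM with 50 IU/mL IL-2, 0.604 CPM with 50 IU/mL IL-2v and 0.301 CPM with 50 IU/mL IL-15, and had 0 UMIs in the other 4 libraries of that day. The day 3 UMIs lay in 0.490% to 1.07% of the cells of a library, with at most 1 to 3 UMIs in a cell. With each cell thinned to 2000 UMIs, the shares were 0.239% to 0.466%, with at most 1 or 2 UMIs. The antisense gene Gm4022 overlaps 16.4% of the exonic bases of Gzmf and had 33 UMIs in all 21 libraries together, at most 11 in 1 library. On day 3 Gm4022 had 3 UMIs without cytokine, and 6 and 4 at the low and high IL-15 dose. The high dose of IL-2 had 4 that day and that of IL-2v 2. Their low-dose libraries had 0, beside 45 and 33 UMIs of Gzmf. Gm4022 had 0 UMIs in every day 5 library, and on day 10 11 and 3 in the libraries highest in Gzmf. Its part in the day 3 counts of Gzmf was not tested. Whether the counting used the strand is not given in the sources used here.

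**Figure D1:**
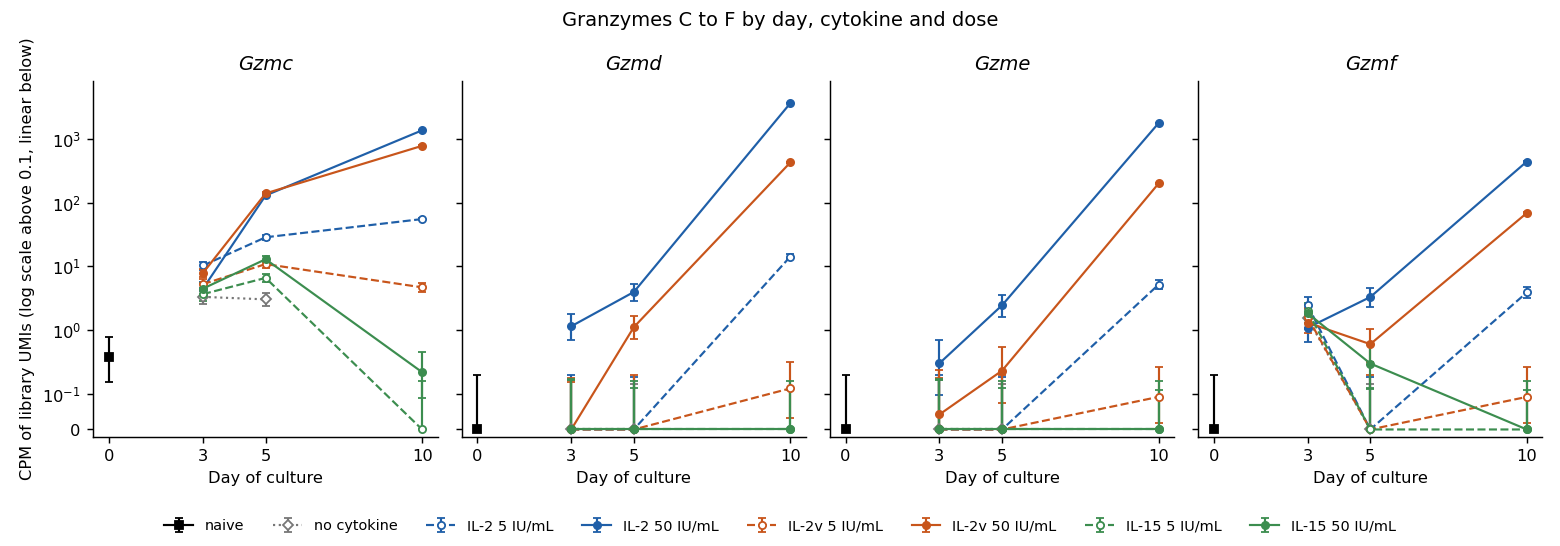
Level of each of the 4 genes (CPM, log scale above 0.1 and linear below) against day of culture, with 1 point per library and exact Poisson 95% intervals. Lines join libraries of the same cytokine and dose and do not follow the same cells. Gzmc is spread over the libraries by day 5, when 50 IU/mL IL-2 and IL-2v stand at 128.9 and 138.9 CPM, while Gzmd and Gzme reach 20 CPM or more in 2 libraries of day 10 only.

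Taking 20 CPM as the level from which a gene was counted as measured, 12 member values reached it in the 84 combinations of gene and library, 6 for Gzmc and 2 each for Gzmd, Gzme and Gzmf. Gzmc reached it on day 5 with both IL-2 doses and with 50 IU/mL IL-2v, though at 5 IU/mL IL-2 its 28.5 CPM became 18.9 CPM without cells above 2 times the median UMIs. Under that filter it no longer counted as measured, which takes 1 value from the counts of cytokine against none, day 5 against day 3, IL-2v against IL-2 and IL-15 against IL-2 given below. The other 3 genes reached it in the 50 IU/mL IL-2 and IL-2v libraries of day 10. The label "late" therefore fits Gzmd, Gzme and Gzmf by the day of their first 20 CPM. Gzmc had UMIs in all libraries of day 3, and Gzmf a low level in them.

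Cells with cytokine were compared with cells without on days 3 and 5, and a log2 difference of at least 1 on the log2(CPM + 1) scale was counted as 2-fold. Among gene values at 20 CPM or more in either library, 6.31% were 2-fold higher with cytokine over the 12 pairs, which share 2 control libraries. Of 48 member values 3 were measured, each Gzmc on day 5, and 3 were higher. Against 3.04 CPM without cytokine, Gzmc was 9.39-fold higher with 5 IU/mL IL-2 (interval 7.40 to 12.1), 42.4-fold with 50 IU/mL IL-2 (33.8 to 54.0) and 45.7-fold with 50 IU/mL IL-2v (36.5 to 58.0). All 3 rest on the single day 5 library without cytokine, and leaving it out leaves 0. A member value that was measured only through its high library had to differ, so these counts and those below describe the libraries and support nothing further.

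On day 10 the doses of IL-2 and of IL-2v stood far apart in all 4 genes, while with IL-15 Gzmd, Gzme and Gzmf had 0 UMIs at both doses and Gzmc 0 and 0.220 CPM. With IL-2, Gzmc was 55.1 CPM at 5 IU/mL and 1353 CPM at 50 IU/mL, 24.6-fold higher (23.4 to 25.8). Gzmd was 253-fold higher (230 to 279), Gzme 339-fold (289 to 399) and Gzmf 112-fold (93.7 to 136). The log2 differences were 4.59, 7.88, 8.15 and 6.49, beside a median of -0.30 over all measured genes. In that pair 6.57% of measured genes were 2-fold higher at 50 IU/mL. The 3 genes that were nearly absent at 5 IU/mL thus differed more between doses than Gzmc. Their 5 IU/mL values came from few cells: Gzmd had 424 UMIs in 35 cells, of which 1 cell held 113. Without cells above 2 times the median UMIs of the library, a filter for droplets with more than 1 cell, the 5 IU/mL level of Gzmd was 4.22 CPM and that of Gzme 1.82 CPM. The log2 differences then became 9.24 and 9.09. Under the same filter the 5 IU/mL levels of Gzmc and Gzmf were 31.5 and 2.24 CPM, and Gzmf with 50 IU/mL IL-2v on day 10 was 43.9 CPM against 68.5.

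With IL-2v the day 10 gap between doses was also wide. Gzmc was 4.69 CPM at 5 IU/mL and 772.7 CPM at 50 IU/mL, 165-fold higher (141 to 195). Its log2 difference was 7.09, and 7.75 in cells without a UMI of the proliferation genes Mki67 and Top2a. Gzmd, Gzme and Gzmf had 4, 3 and 3 UMIs at 5 IU/mL against 11583, 5421 and 1869 UMIs at 50 IU/mL. Their ratios were 3464 (1353 to 12715), 2162 (739 to 10485) and 745 (255 to 3617). Of measured genes 5.02% were 2-fold higher in that pair, and the median over all of them was -0.13. On day 5 Gzmc was the member measured, and was higher at 50 IU/mL, 4.52-fold with IL-2 (4.09 to 4.99) and 12.8-fold with IL-2v (11.1 to 14.8). On day 3 Gzmc was lower at 50 than at 5 IU/mL IL-2, 4.48 against 10.3 CPM, and neither value was measured at 20 CPM. At 5 IU/mL 1 cell held 73 of those day 3 UMIs, and without cells above 2 times the median UMIs the levels were 4.62 against 6.61 CPM. Over the 9 pairs of doses 10 of 36 member values were measured and 10 were higher at 50 IU/mL, where 4.58% of all measured gene values were. Leaving out any 1 of the 4 day 10 libraries of IL-2 and IL-2v leaves 6.

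From day 3 to day 5 the measured change was that of Gzmc. By day 5 it was 28.8-fold higher in 50 IU/mL IL-2 (22.7 to 36.8), 17.6-fold with 50 IU/mL IL-2v (15.2 to 20.6) and 2.77-fold with 5 IU/mL IL-2 (2.34 to 3.28). These were 3 of 3 measured among 24 member values, beside 1.79% of all measured gene values over the 6 pairs. From day 5 to day 10 all 4 genes were higher at 50 IU/mL IL-2, and Gzmd and Gzme differed most. Gzmc was 10.5-fold higher (9.94 to 11.1), Gzmd 908-fold (672 to 1260), Gzme 714-fold (487 to 1093) and Gzmf 133-fold (95.3 to 190). The Gzmf level of day 5 came from 35 UMIs in 13 cells, of which 1 cell held 15, and these intervals, like those of Gzmd, take UMIs as independent and leave out the spread between cells. In that pair 5.99% of measured genes were 2-fold higher. In the IL-2v series of that dose, Gzmc was 5.56-fold higher on day 10 (5.35 to 5.78; a log2 difference of 2.47, and 3.21 in cells without Mki67 and Top2a UMIs), Gzmd 381-fold (256 to 594) and Gzmf 113-fold (66.1 to 213). Gzme was 855-fold higher, with an interval of 366 to 2634 because day 5 held 5 UMIs. In that pair 1.58% of measured genes were 2-fold higher. Over the 6 pairs 8 of 9 measured member values of 24 were higher on day 10, beside 2.73% of all measured gene values, and 4 are left without any 1 of the day 5 or day 10 libraries at 50 IU/mL IL-2 or IL-2v. The remaining value was Gzmc with 5 IU/mL IL-2, 1.93-fold higher (1.75 to 2.13) and 0.92 on the log2 scale. Without cells above 2 times the median UMIs, these Gzmc levels were 31.5 CPM on day 10 and 18.9 CPM on day 5, 1.67-fold apart (1.46 to 1.90). In the opposite direction, Gzmc with 5 IU/mL IL-2v was 10.9 CPM on day 5 and 4.69 CPM on day 10, and with 50 IU/mL IL-15 12.9 and 0.220 CPM. With 5 IU/mL IL-15 Gzmc was 6.59 CPM on day 5 and had 0 UMIs on day 10.

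IL-2v and IL-2 at the same labelled dose in IU/mL gave the 4 genes in unequal measure. Whether equal IU/mL of the cytokines had equal activity on these cells was not tested, here or in the comparisons with IL-15. At 50 IU/mL on day 5 Gzmc was 138.9 CPM with IL-2v and 128.9 CPM with IL-2, a log2 difference of 0.11. Its IL-2 level was 0.928 times its IL-2v level (0.870 to 0.989), an interval of counting error only. On day 10 it was 772.7 against 1353 CPM, 1.75-fold lower with IL-2v (1.72 to 1.78), which is under the 2-fold limit. Gzmd was 8.49-fold lower with IL-2v (8.33 to 8.65), Gzme 8.82-fold (8.58 to 9.08) and Gzmf 6.40-fold (6.09 to 6.72). These intervals take UMIs as independent and leave out the spread between cells. With cells above 2 times the median UMIs left out, Gzmd was 342 CPM with IL-2v against 3154 CPM with IL-2. Under that filter Gzme was 152 against 1541 CPM, Gzmf 43.9 against 382 CPM and Gzmc 658 against 1158 CPM. Gzmd, Gzme and Gzmf were called lower, where 2.16% of the measured genes in that pair were 2-fold lower with IL-2v. At 5 IU/mL Gzmc was 2.63-fold lower with IL-2v on day 5 (2.23 to 3.10) and 11.7-fold lower on day 10 (9.95 to 13.96). Without cells above 2 times the median UMIs, these became 1.83-fold (1.52 to 2.22), from 18.9 CPM with IL-2, and 7.53-fold (6.22 to 9.17). Over the 6 pairs 5 of 7 measured member values of 24 were lower with IL-2v, beside 2.55% of all measured gene values, and 2 are left without either 50 IU/mL library of day 10.

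IL-15 libraries held next to none of these RNAs on day 10. At 50 IU/mL Gzmc was 6158-fold higher with IL-2 than with IL-15, from 7 UMIs with IL-15 (interval 2988 to 15317). Against the level of 3 UMIs in the IL-15 library, Gzmd was at least 38258-fold higher with IL-2, Gzme at least 18611-fold and Gzmf at least 4655-fold. The same bounds for IL-2v were 4508, 2110 and 727. On day 5 the difference between IL-2 and IL-15 in Gzmc was 4.33-fold at 5 IU/mL (3.68 to 5.12) and 9.97-fold at 50 IU/mL (8.80 to 11.3). In all 7 of 7 measured member values of 24 were lower with IL-15 than with IL-2, beside 5.68% of all measured gene values over the 6 pairs and 11.6% in the day 10 pair at 50 IU/mL. Between IL-2v and IL-15 5 of 5 were higher with IL-2v, beside 6.15% over the 6 pairs and 9.03% in that day 10 pair. Without either library of the day 10 pair at 50 IU/mL, 3 remain in the former comparison and 1 in the latter. The comparisons of cytokines share libraries with one another and with those of dose and day.

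The make-up of the sum of the 4 genes shifted as it grew. At 50 IU/mL IL-2 on day 5 the 4 genes summed to 139 CPM, of which Gzmc was 93.0%. On day 10 they summed to 7145 CPM, or 0.715% of all UMIs, and Gzmd made up 50.4% of that sum, Gzme 24.5%, Gzmc 18.9% and Gzmf 6.13%. For IL-2v at that dose the sum was 141 CPM on day 5, of which Gzmc was 98.6%, and 1464 CPM on day 10. There Gzmc still held 52.8%, Gzmd 29.0%, Gzme 13.6% and Gzmf 4.68%. At 5 IU/mL IL-2 on day 10 the sum was 78.4 CPM, 70.3% of it Gzmc, and without cells above 2 times the median UMIs it was 39.8 CPM, 79.2% of it Gzmc. So among the 4 genes Gzmc led in each of these libraries except 50 IU/mL IL-2 on day 10, where Gzmd did. The neighbour Gzmg, which is not in the sum, was 5667 CPM there, above Gzmd at 3602 CPM. All granzymes together took 2.58% of UMIs with 50 IU/mL IL-2 on day 10 and 0.543% with IL-2v.

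Set per kb of annotated transcript, the levels along the chromosome did not follow distance from Gzmb. UMIs count molecules whatever the length of the transcript, and the order of Gzmb and Gzmg depends on the scale: in CPM, Gzmb (7618 CPM, transcript of 1436 bases) was above Gzmg (5667 CPM, 909 bases) with 50 IU/mL IL-2 on day 10. On the per kb scale Gzmg was highest there at 6234 CPM per kb, then Gzmb at 5305, Gzmd at 3736.5, Gzme at 1913, Gzmc at 1513 and Gzmf at 477 CPM per kb. Gzmn, which lies between Gzmf and Gzmg, was 8.48 CPM per kb, and beyond Gzme the level was 14.2 for Ctsg, 13.7 for Mcpt8 and 0.614 for Cma1. In the IL-2v library Gzmb was highest at 2188.5 CPM per kb, then Gzmc at 864, Gzmd at 440, Gzmg at 372, Gzme at 217 and Gzmf at 74.5. At 5 IU/mL IL-2 Gzmc stood at 61.6 CPM per kb, and Gzmd, Gzme, Gzmg and Gzmf at 14.8, 5.65, 5.43 and 4.24. Without cells above 2 times the median UMIs the order of the last 3 changed: Gzmc was 35.3 CPM per kb, Gzmd 4.38, Gzmf 2.43, Gzme 1.99 and Gzmg 1.55. Gzmg, no member by symbol, thus followed Gzmd and Gzme. Its level was 4.94 CPM with 5 IU/mL IL-2, 338 CPM with 50 IU/mL IL-2v and 5667 CPM with 50 IU/mL IL-2 on day 10.

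**Figure D2:**
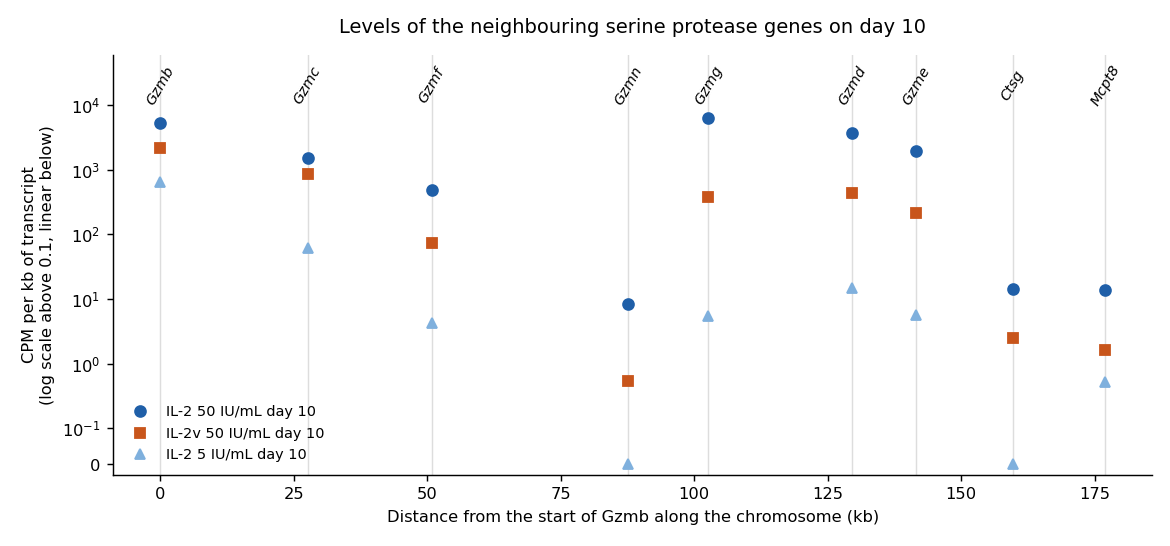
CPM per kb of transcript (log scale above 0.1 and linear below) of the granzyme and protease genes, against distance in kb from the start of Gzmb, in 3 libraries of day 10. Levels reach 477 to 6234 CPM per kb for Gzmc, Gzmf, Gzmg, Gzmd and Gzme with 50 IU/mL IL-2, and drop to 8.48 at Gzmn in between and to 14.2 at Ctsg beyond Gzme.

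Single cells were compared after each cell was thinned at random to 2000 UMIs, without the cells that held fewer. In the 50 IU/mL IL-2 library of day 10, Gzmd was found in 50.6% of 4693 cells, Gzme in 44.2%, Gzmc in 36.9% and Gzmf in 8.57% (7.78% to 9.40%). The shares without thinning were 58.1%, 50.8%, 46.8% and 14.4%. In the IL-2v library of that day and dose, Gzmc was found in 20.998% of 4948 cells, Gzmd in 8.65%, Gzme in 7.26% and Gzmf in 1.19%. On day 5 Gzmc was found in 11.7% of cells both with IL-2 (2857 cells) and with IL-2v (4780 cells). The shares at 5 IU/mL IL-2 on day 10 were 3.22% for Gzmc, 0.395% for Gzmd, 0.279% for Gzme and 0.148% for Gzmf, of 6083 cells. In libraries that hold next to none of these RNAs, any of the 4 genes was found in 1 of 4471 naive cells (0.0224%), in 0 of 5394 cells with 5 IU/mL IL-15 on day 10, which allows up to 0.0556% by a limit of 3 cells, and in 0.0777% of cells with 50 IU/mL IL-15. The limit of 0.0556% is on cells with a UMI after thinning to 2000 UMIs, and not on cells that hold the RNA. The median depths of these 3 libraries were 3799, 3927 and 4383 UMIs, against 5065 and 4926 with 50 IU/mL IL-2 and IL-2v. These shares do not measure free RNA within the 50 IU/mL IL-2 library, in which no cell type known to lack the genes was identified, and its part in the shares there was not tested. At least 2 UMIs were found there in 41.2% of thinned cells for Gzmd, 35.4% for Gzme, 24.97% for Gzmc and 4.82% for Gzmf. The share with any member was 65.3% with 50 IU/mL IL-2 on day 10 (63.9% to 66.7%) and 24.3% with IL-2v. By contrast Gzmb was found in 98.5% and 94.4% of cells.

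**Figure D3:**
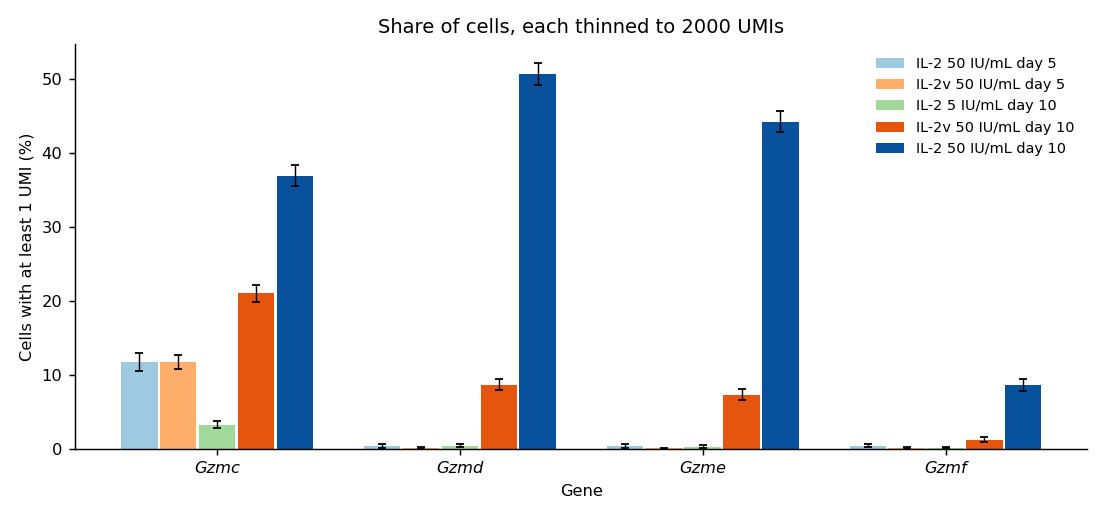
Share of cells with at least 1 UMI of each gene, each cell thinned to 2000 UMIs, in 5 libraries, with exact Clopper-Pearson 95% intervals that cover counting error. Gzmc is found in 11.7% of cells in both day 5 libraries at 50 IU/mL, while the bars of Gzmd, Gzme and Gzmf rise above 1% only in the 50 IU/mL libraries of day 10.

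The RNA was unevenly spread over cells. With 50 IU/mL IL-2 on day 10 the 10% of cells with the most UMIs of a gene held 69.2% of the Gzmc UMIs, 54.6% of Gzmd and 55.1% of Gzme, against 26.5% of Gzmb. The same share was 69.0% for Gzmg, 46.8% for Prf1 and 42.5% for Gzma. Mean UMIs per cell were 14.3 for Gzmb, 2.19 for Gzmc, 5.99 for Gzmd and 2.94 for Gzme, which these shares do not take into account. The 10% of cells richest in Gzmf held all of its UMIs, since fewer cells than that had any. A cell with Gzmf held 8.29 UMIs on average but 2 in the median, and 1 cell held 76. The variance of Gzmf was 25.4 times its mean over cells, against 19.6 for Gzmd, 11.8 for Gzmc, 9.66 for Gzme and 50.6 for Gzmg.

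In the 2 day 10 libraries at 50 IU/mL IL-2 or IL-2v, each pair of the genes was found in the same cells more often than the product of their shares. On day 5 with 50 IU/mL IL-2, 344 of 354 cells with any member held just 1 of them, where Gzmd, Gzme and Gzmf were each found in only 9 to 11 of 2857 cells. Gzmd and Gzme shared 3 of those cells, against 0.0315 by the product of their shares, and Gzmc shared 4 with Gzmf (1.29 by the product), 3 with Gzme (1.17) and 0 with Gzmd (1.05). With IL-2v on day 5, Gzmc shared 2 of the 3 cells with Gzmd (0.351 by the product), so these few cells gave no common pattern for that pair. Both Gzmd and Gzme were found in 39.3% of cells with 50 IU/mL IL-2 on day 10, 1.75 times the product of their single shares. Gzmd was present in 88.8% of cells with Gzme (87.4% to 90.1%) and in 20.4% of cells without it. Gzme was present in 77.5% of cells with Gzmd and in 10.0% of cells without it. Of the cells with Gzmf, 86.1% had Gzmd, 79.6% had Gzme and 68.2% had Gzmc. The ratio to the product was 1.41 for Gzmc with Gzmd, 1.49 for Gzmc with Gzme, 1.85 for Gzmc with Gzmf, 1.70 for Gzmd with Gzmf and 1.80 for Gzme with Gzmf. The IL-2v library gave larger ratios, of 3.47, 3.59, 3.79, 6.47 and 7.01 in the same order and 9.15 for Gzmd with Gzme. The lower single shares there allow larger ratios. Gzmd was present in 79.1% of IL-2v cells with Gzme, and Gzmc in 72.9% of those with Gzmd. The members share sequence, so part of an overlap could come from reads of a copy, and that was not tested.

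Among cells with any of the 4 genes, combinations shifted between the day 5 and day 10 libraries. At 50 IU/mL on day 5, Gzmc alone made up 92.4% of such cells with IL-2 and 98.6% with IL-2v. On day 10 with IL-2 the most common combination was Gzmc, Gzmd and Gzme at 27.5%, then Gzmd and Gzme at 22.4%, Gzmc alone at 13.2% and Gzmd alone at 11.6%. All 4 genes were found in 230 cells, 7.50% of those with any. With IL-2v Gzmc alone remained first at 56.1%, with 16.9% for Gzmc, Gzmd and Gzme and 2.33% for all 4. At 5 IU/mL IL-2 on day 10 Gzmc alone made up 83.2% of 208 cells.

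**Figure D4:**
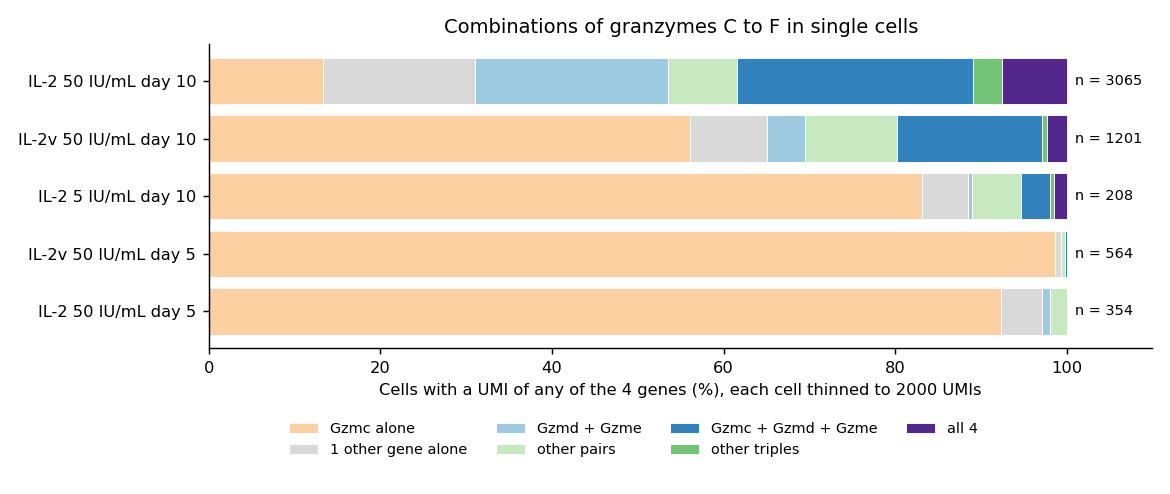
Combinations of the 4 genes as a percent of the cells that hold a UMI of any, 1 bar per library, with the number of such cells at the right. Gzmc alone fills 92.4% and 98.6% of the day 5 bars, and on day 10 56.1% of the IL-2v bar and 13.2% of the IL-2 bar at 50 IU/mL.

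On day 10 cells with more Gzmc more often held the others. With 50 IU/mL IL-2 on day 10, Gzmd was found in 38.6% of cells with no Gzmc UMI, 53.0% with 1, 71.0% with 2 to 4 and 86.6% with 5 or more. With IL-2v the shares were 2.97%, 12.5%, 20.6% and 52.9%. On day 5 too few cells held the others to read an order. With 50 IU/mL IL-2, the 9 cells with Gzmd had no Gzmc UMI, while Gzme and Gzmf were each in 0.277% of cells without Gzmc and in 7.41% of the 27 cells with 5 or more Gzmc UMIs. With IL-2v on day 5, Gzmd was in 0.0237% of cells without Gzmc and in 1.47% of the 68 cells with 5 or more. The cells with a member had more UMIs before thinning, with medians of 5688 against 4568.5 with IL-2 and 5930 against 4771 with IL-2v on day 10. Beyond the thinning to equal depth, co-detection was also counted without cells above 2 times the median UMIs, and lay above the product of shares in the 9 cases that could be counted. The part of cell size in the overlap was otherwise not tested.

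**Figure D5:**
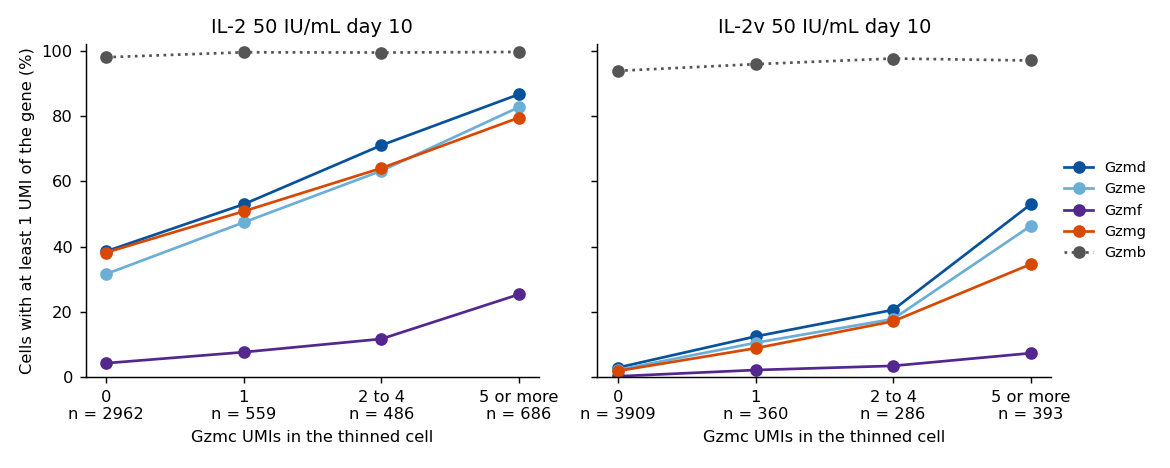
Percent of cells with a UMI of Gzmd, Gzme, Gzmf and, for comparison, the neighbours Gzmg and Gzmb, against the number of Gzmc UMIs in the cell, for the 50 IU/mL libraries of IL-2 and IL-2v on day 10, each cell thinned to 2000 UMIs. The Gzmd line goes from 38.6% to 86.6% with IL-2 and from 2.97% to 52.9% with IL-2v, while the Gzmb line lies near the top in every class.

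The proportion of Gzmd to Gzme ran over a narrower range from cell to cell than that of Gzmc to Gzmd. In cells with at least 20 UMIs of the pair, Gzmd was a median of 68.2% of the sum in 1476 cells with 50 IU/mL IL-2 and of 69.2% in 207 cells with IL-2v. The central 90% of cells ran from 42.3% to 86.7% and from 46.2% to 88.9%. With IL-2, 2 cells had Gzmd alone and 3 had Gzme alone, and with IL-2v none had either alone. In the libraries of day 10 the pooled share was 67.3% for IL-2 and 68.1% for IL-2v at 50 IU/mL. For IL-2 at 5 IU/mL it was 73.4% (69.6% to 76.9%), from 35 cells with Gzmd. Without cells above 2 times the median UMIs, a filter applied to this share after seeing the data, it was 69.9% (61.7% to 77.2%), an interval that takes in the 67.2% and 69.3% of the 50 IU/mL IL-2 and IL-2v libraries under the same filter. In the day 5 libraries it was 61.8% with IL-2 (49.2% to 73.3%) and 82.8% with IL-2v (64.2% to 94.2%), from 68 and 29 UMIs. Gzmc and Gzmd varied more: Gzmc was a median of 17.9% of their sum in 1423 cells with 50 IU/mL IL-2, from 0% to 89.3% over the central 90%. Gzmd was found alone in 220 of those cells and Gzmc alone in 37. With IL-2v the balance lay the other way: Gzmc was a median of 72.9% of the sum in 394 cells, from 5.42% to 100%, and was alone in 96 cells against 11 with Gzmd alone. With IL-2, of 631 cells with at least 20 UMIs of Gzmc and Gzmf, 324 had Gzmc alone and 11 had Gzmf alone. The rank correlation over cells was 0.829 for Gzmd with Gzme, 0.446 for Gzmc with Gzmd and 0.240 for Gzmc with Gzmf, over the 4693 cells of that library.

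The copies are alike enough that short reads could fit more than 1 of them, so counts of Gzmd, Gzme and Gzmf may be uncertain. The part of such reads in the counts was not tested. The transcripts of Gzmd and Gzme were 90.4% identical, and 84.0% over the last 300 bases, where tags would fall if read from the 3′ end, which the labels used here do not state. Gzme was 88.1% identical to Gzmg, Gzmf 87.9% to Gzmg and Gzmd 83.3% to Gzmf. Over the last 300 bases these pairs were 86.0%, 88.2% and 85.0% identical, each above Gzmd with Gzme. Gzmc was 69.9% to 71.5% identical to the others, and 48.9% to 54.0% over the last 300 bases. Of all stretches of 31 bases, 42.1% of those in Gzme, 38.2% in Gzmd, 22.8% in Gzmf and 14.8% in Gzmc also occurred without mismatch in another gene. With stretches of 50 bases within the last 300, the shares were 12.7% in Gzmf, 11.6% in Gzme, 9.96% in Gzmd and 0% in Gzmc. With stretches of 90 bases over the whole transcript the shares were 0.967% in Gzme, 2.17% in Gzmd and 0% in Gzmf and Gzmc, and none of these lay in the last 300 bases. Reads that fit more than 1 copy could have been dropped or split, and the read length and that rule are not given in the sources used here.

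Other granule and effector genes were read from lists of related genes. In the pair used, 6.57% of measured genes were 2-fold higher and 14.5% were 2-fold lower at 50 IU/mL. Between 50 and 5 IU/mL IL-2 on day 10, the other granzymes Gzma, Gzmb and Gzmg were higher (3 of 3 measured of 6 listed). Gzma was 5352 against 1114 CPM and Gzmb 7618 against 912 CPM. Of 10 measured genes of granule loading, release and protection, 4 were higher and 1 was lower. Prf1, which encodes perforin, was 732 against 26.6 CPM, and Serpinb9, which encodes an inhibitor of granzyme B, 150.0 against 29.9 CPM. Ctsc, whose product activates granzymes by cutting off their propeptide, was the lower gene at 31.5 against 90.5 CPM. Of 7 effector transcription factors 3 were higher, among them Zbtb32 at 289 against 11.6 CPM and Prdm1, the gene of Blimp-1, at 26.5 against 7.63 CPM. All 8 naive and memory genes were lower, with a median log2 difference of -3.88, and among them Tcf7, the gene of TCF-1, was 2.38 against 177 CPM. Of 6 measured genes of the IL-2 receptor and its STAT5 readout 2 were higher, Il2ra and Il2rb, and Cish was lower. The library with the highest members was thus also high in perforin and low in Tcf7.

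Markers of other cells moved with the members in some cases. Of 4 NK cell markers the sum was highest, 135 CPM, with 50 IU/mL IL-2 on day 10 and 82.7 CPM with 50 IU/mL IL-2v, in a range from 0.343 and a median of 2.84 CPM. Fcer1g, the gene of a signalling chain of Fc receptors, gave 113 and 44.3 CPM of these sums, Klrb1c 21.3 and 36.7, and Ncr1, the defining receptor, had no UMI with 50 IU/mL IL-2. Klrb1c was 22.0 CPM with 5 IU/mL IL-2 on day 10 as well. Of 5 mast cell and basophil markers 4 were in the tables and summed to 16.0 and 3.66 CPM. Mcpt8, a neighbour of Gzme, made up 11.5 and 1.36 CPM, Kit 3.63 and 1.72, and the carboxypeptidase gene Cpa3 0.220 and 0.183. Their part in the levels of the 4 genes was not tested.

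Cells with a member UMI were set beside cells without in the 4 libraries where 5% to 95% of cells had one, the 50 IU/mL libraries of IL-2 and IL-2v on days 5 and 10. Genes were ranked among those of 5608 measured genes that differed in the same direction in all 4. The 5 with the highest median log2 difference were Gzmg (4.62), Fcer1g (2.66), Spp1 (1.89), Cd244a (1.85) and Havcr2 (1.82). Their day 5 levels were low, 8.47 to 31.1 CPM in cells with a member with IL-2 and 12.4 to 33.7 CPM with IL-2v, and Gzmg was found in 0.282% of 354 and 0.532% of 564 such cells, so its day 5 values rest on 1 and 3 cells. Spp1 encodes osteopontin, Cd244a the receptor 2B4 and Havcr2 the inhibitory receptor TIM-3. Among the lowest were Tcf7 (-1.997), Iigp1 (-1.70), BE692007 (-1.58) and Ifi27l2a (-1.57). Iigp1 encodes an interferon-induced GTPase. Prf1 differed by 1.59, Gzmb by 0.57, Il2ra by 0.10 and the proliferation gene Mki67 by -0.57. With 50 IU/mL IL-2 on day 10, Prf1 was found in 61.0% of cells with a member and 25.6% of cells without, Gzma in 83.0% and 65.5%, and Gzmb in 99.2% and 97.1%. With IL-2v the shares were 18.5% and 7.55% for Prf1 and 35.2% and 15.2% for Gzma. The cells compared came from the same libraries and are no replicates.

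Across the 21 libraries, the level of each of 7267 genes was correlated with the summed level of the 4 members, both on the log2(CPM + 1) scale, as a description over libraries that share days and treatments. The 10 most alike by Pearson's r were Ceacam16 (0.959), Adam8 (0.955), Sult2b1 (0.951), Tmem40 (0.951), Lat2 (0.949), Adora3 (0.949), Vav3 (0.940), Lrrk1 (0.935), Stk32c (0.933) and Cd244a (0.930). Adam8 encodes a membrane metalloprotease and Sult2b1 a sulfotransferase of sterols. Without the 50 IU/mL IL-2 and IL-2v libraries of day 10, the r of Ceacam16 was 0.886 and that of Adam8 0.920. Over the 10 genes the r without them was 0.824 to 0.938. The list itself moved with the setting: 3 of the 10 genes were still among the highest 10 under Spearman's rank correlation. Without all day 10 libraries 2 were. Ceacam16, Tmem40, Adora3, Vav3, Stk32c and Cd244a were under 20 CPM outside the 50 IU/mL IL-2 and IL-2v libraries of day 10, and so were not ranked there. Among genes with 100 CPM in any library 2 remained, Adam8 and Sult2b1. The others of the 10 did not reach 100 CPM, so that filter could leave no more. Gzmg ranked 46 (0.878), Gzma 58 (0.863), Prf1 203 (0.743), Gzmb 224 (0.730) and Il2ra 988 (0.449). Without the 50 IU/mL IL-2 and IL-2v libraries of day 10 the r was 0.748 for Gzmg, 0.682 for Gzma, 0.216 for Prf1, 0.713 for Gzmb and 0.583 for Il2ra, so that of Prf1 rests on them. By single member the most alike genes were Adam8 for Gzmc (0.952), Tnfrsf11b for Gzmd (0.997), Gzmg for Gzme (0.995) and Gstm5 for Gzmf (0.964). Between members r was 0.995 for Gzmd with Gzme, 0.952 for Gzmd with Gzmf, 0.958 for Gzme with Gzmf and 0.830 for Gzmc with Gzmd. With most libraries at 0 for Gzmd and Gzme, these values rest on the few libraries of day 10.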

How the data were processed

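The values were raw UMI counts per gene symbol and cell barcode, deposited by the authors as 1 table per library. Cell Ranger, Seurat 4.0.1 and 3.0.2 and the mm10 build are named per the submitters' processing notes, with no role given, and the read length and any removal of doublets are not given in the sources used here. Barcodes held 1002 to 13407 UMIs. A filter of at least 1000 UMIs, at least 500 genes and no more than 10% mitochondrial UMIs per cell removed 2 of 106458 barcodes, and no doublets were removed. Over 210 pairs of libraries, the highest number of shared barcodes was 19, and the highest share of the smaller library, taken separately, was 0.340%. Counts were summed per library and scaled to CPM with exact Poisson intervals. Folds had exact conditional binomial intervals and shares exact Clopper-Pearson intervals. Where a library had 0 UMIs, a fold was computed against 3 UMIs and given as a lower bound. A difference is that of log2(CPM + 1), which shrinks the change of genes at low levels. Genes with 20 CPM in either library were measured, and a difference of at least 1 was called. Genes were named by rule: the members, list genes, the 10 most like the members' sum, the single most like gene of each, and the 5 highest and 5 lowest between cells with and without a member, except that results of some items are not reported here. The 4 members and all lists were chosen with earlier results of these data known. Each condition had 1 library, and no model was fitted. Python 3.11.15, numpy 2.4.6 and scipy 1.17.1 were used, and edgeR 4.0.16 in R 4.3.3 for trimmed mean of M values (TMM) factors only. The likeness, thinning and difference code was checked on simulated data, and the co-detection code was not.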

Additional observations from a re-analysis of the deposited data

How the results depend on the processing

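Calls were recomputed under other settings. At 5 CPM in place of 20, 20 member values in libraries counted as reached, against 12. With no expression filter the called member values became 12 with cytokine against none (3 before), 15 between doses (10), 8 on day 5 against day 3 (3) and 11 on day 10 against day 5 (8). They became 12 in IL-2v against IL-2 (5), 15 in IL-15 against IL-2 (7) and 7 in IL-2v against IL-15 (5), each counted in the direction reported. The share of all genes was not computed at this setting, so whether the members exceed it is not known. In the opposite direction there were 4 on day 5 against day 3 (all Gzmf, lower on day 5), 3 on day 10 against day 5, 1 between doses and 0 in the other comparisons with no filter. At 100 CPM the IL-2v against IL-2 count became 3. Of the 10 genes most like the members, 3 were shared under Spearman's rank correlation, 6 with TMM factors, 2 without day 10 and 2 among genes with 100 CPM in any library. The last count could be no higher, because only Adam8 and Sult2b1 of the 10 reached 100 CPM. Without day 10 some of the 10 fell under 20 CPM and were not ranked. Leaving out each library in turn was an alternative chosen after seeing the data for all counts but the likeness. It gave 0 to 3 called with cytokine against none, 6 to 10 between doses, 2 to 3 on day 5 against day 3, 4 to 8 on day 10 against day 5, 2 to 5 in IL-2v against IL-2, 3 to 7 in IL-15 against IL-2, 1 to 5 in IL-2v against IL-15, 8 to 12 values in libraries, and 6 to 10 genes shared in likeness. The lowest values came without a 50 IU/mL library of day 10, except without the day 5 library without cytokine for the first and without any of the 6 libraries used for the third. Any 5 or 50 IU/mL library of IL-2 or IL-2v on day 10 gave the lowest dose count, and a 50 IU/mL library of day 5 gave the lowest day 10 count as well. The 28 single differences had 252 alternative values, of which 123 moved beyond their counting interval and 0 reversed. A move of over 1.5 times was seen for 21 with a pseudocount of 10 CPM, 5 without cells above 2 times the median UMIs, 3 with the mean of single-cell CPM and 2 in cells that lacked UMIs of Mki67 and Top2a (Gzmc with 50 IU/mL IL-2v on day 10, against 5 IU/mL and against day 5). TMM moved the median of all genes in the IL-2 dose pair of day 10 from -0.30 to 0.04, and those of day 10 against day 5 at 50 IU/mL from -0.25 to 0.13 for IL-2 and from -0.37 to 0.03 for IL-2v, shifts common to all genes of a pair. For the 6 pairs of genes in the 50 IU/mL IL-2 and IL-2v libraries of day 10, co-detection lay above the product of shares in 12 of 12 cases, and in 9 of 9 without high-UMI cells, in cells without Mki67 and Top2a UMIs, and at 2 UMIs, where the other 3 could not be counted because a gene was in under 50 cells. The filter on high-UMI cells was applied after seeing the data to the make-up of the sum, the levels per kb and the Gzmc levels at 5 IU/mL. No paired analysis was possible because the labels give no replicate numbers and the results come from no test. Pairs of equal day and dose or cytokine are different conditions, and no additive model was fitted over them. Depth limits the early values, where Gzmd, Gzme and Gzmf rest on 1 to 45 UMIs per library before day 10.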
